A study of Mus musculus with 17 samples.

Results

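The 34 p53 target genes described here were chosen by name, as a list of genes known to be switched on by the tumour suppressor p53, and their rows were taken from the count tables of both leukaemia models of the study. Of the 34 members, 33 had a row among the 26029 genes of the table of model 1, and the same number had one among the 24659 genes of the table of model 2. Eda2r, which encodes a receptor of the tumour necrosis factor receptor family, was found only in a second table of model 1. After a filter on low counts, 32 members were tested in model 1 and 29 in model 2. Plk2 was below the filter in both models, and Pmaip1, Fas and Tigar were below it in model 2.

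All mice carried a Spi1 transgene, which the paper describes as constitutively expressed and as blocking erythroid differentiation. The cells were erythroid blasts kept in culture with erythropoietin (EPO), the growth factor of red cell precursors. In model 1 (strain DBA2JxFVB/N), RNA was sequenced from preleukaemic blasts of 4 mice with intact Fanca (TgSpi1FA+/+, preleukemic_445, preleukemic_479, preleukemic_451 and preleukemic_138), from preleukaemic blasts of 3 mice with both Fanca alleles deleted (TgSpi1FA-/-, preleukemic_77, preleukemic_224 and preleukemic_40) and from leukaemic blasts of 3 TgSpi1FA-/- mice (leukemic_26, leukemic_28 and leukemic_39). Preleukaemic blasts need EPO and form no tumour under the skin of immunodeficient mice, whereas leukaemic blasts are EPO-independent. Model 2 (strain DBA2J) held preleukaemic blasts of 4 (preleukemic_633, preleukemic_663, preleukemic_812 and preleukemic_837) and leukaemic blasts of 3 (leukemic_601, leukemic_606 and leukemic_921) TgSpi1FA+/+ mice. Its leukaemic cells emerged after preleukaemic mice had been given serial blood transfusions. Each library came from 1 mouse, named here by the stage and number at the end of its sample title (by # and number in the plots). FANCA, the protein made from Fanca, is part of the Fanconi anaemia core complex, which acts in the repair of crosslinked DNA. The comparisons asked what happened to the p53 targets when FANCA was lost, and when preleukaemic cells became leukaemic with or without FANCA.

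The p53 protein, encoded by Trp53 in the mouse, is a transcription factor that is held at a low level by MDM2 and MDM4 and is stabilised when DNA is damaged. It binds DNA as a tetramer at sites made of a pair of half-sites and raises the transcription of genes that halt the cell cycle, start apoptosis, repair DNA and adjust metabolism. Many of these genes also have other regulators, so that their RNA level is not a measure of p53 alone. In Fanconi anaemia, a raised p53 response to unrepaired damage is known to contribute to the loss of blood stem and progenitor cells.

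The promoter sequences are shown because they hold the site through which p53 is known to act on a part of these genes. Promoters of 300 bases (250 before and 50 after the transcription start, RefSeq, GRCm38.p6) were found for 25 of the 34 members, and they were searched for the p53 full site, made of 2 half-sites of 10 bases with no spacer. The consensus reads the same on both strands. A match needed the 4 fixed letters of the full site, CNNGNNNNNNCNNG, and at most 3 mismatches in 20 bases, a limit chosen after the matches had been seen. Such a match lay in a promoter of 9 of the 25 members (36%), against 1.63% of all 27025 gene symbols in the same promoter table. The 20 bases of the match are in capitals, with 5 bases on each side, 5′ to 3′ on the strand of the gene.
Ccng1: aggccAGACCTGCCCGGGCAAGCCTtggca
Cdkn1a: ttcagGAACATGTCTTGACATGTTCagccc
Gtse1: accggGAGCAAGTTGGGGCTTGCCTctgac
Rps27l: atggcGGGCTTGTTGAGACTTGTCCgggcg
Ckap2: tctgaAGACATGTCCTGACTTGTCAagcct
Bbc3: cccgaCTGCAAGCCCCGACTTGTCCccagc
Aen: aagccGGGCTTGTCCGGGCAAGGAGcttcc
Sesn1: ccttcAAGCTTGTTTTTGCTGGCCTggtcc
Tigar: gcggcGGTCTAGCTCTGGCAAGACTccagg

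The matches of Ccng1, Cdkn1a, Gtse1 and Rps27l had 1 mismatch, that of Ckap2 had 2, and the other 4 had 3. The printed stretch of Ccng1 lies at chr11:40755457-40755486 on the minus strand, with the match from base -195 to base -176 relative to the start. That of Cdkn1a lies at chr17:29090923-29090952 on the plus strand, with the match from -51 to -32, and that of Bbc3 at chr7:16309481-16309510 on the plus strand, from -97 to -78. In Gtse1 (chr15:85859940-85859969, plus strand) the match spans the annotated start. Sites of p53 that lie further away or within introns, which are known for several of these genes, are outside these windows.

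The libraries held 29964576 to 38217654 counts in model 1 and 37726753 to 40514205 in model 2, and levels are given as CPM, the counts scaled to a common total after TMM normalisation. For preleukemic_77, preleukemic_224 and preleukemic_40, the column names and source names call the cells leukaemic and the sample titles preleukaemic. The titles were used, and the paper also lists these mice as TgSpi1FA-/- preleukaemic. The libraries labelled preleukemic_445 and preleukemic_479 of model 1 hardly differed from each other (chi-square divided by its degrees of freedom 9.18, against 126 to 411 for the other pairs of libraries of a group in model 1). Whether they are 2 mice is uncertain, and results that rest on them are also given without preleukemic_445 or preleukemic_479. The 12 erythroid markers (among them Gata1, Klf1, Tfrc and globin genes) were all detected in every group, with summed levels of 4240 to 5885 CPM in the preleukaemic and 2524 to 3922 CPM in the leukaemic libraries of model 1. In model 2 these sums were 4457 to 5765 CPM in preleukaemic and 2480 to 4164 CPM in leukaemic libraries. Of 8 lymphoid markers, 3 were in the table of model 1, with a summed level of at most 0.384 CPM. Megakaryocyte markers summed to 43.6 to 192 CPM in TgSpi1FA+/+ preleukaemic, 31.2 to 40 CPM in TgSpi1FA-/- preleukaemic and 166 to 252 CPM in TgSpi1FA-/- leukaemic libraries, and mast cell markers to 3.71 to 59.1 CPM in preleukaemic and 92.1 to 154 CPM in leukaemic libraries of model 2. In model 1 the mast cell markers summed to 8.56 to 92.0 CPM in TgSpi1FA+/+ preleukaemic libraries. Their sums were 1.97 to 31.5 CPM in TgSpi1FA-/- preleukaemic and 0.330 to 11.2 CPM in TgSpi1FA-/- leukaemic libraries. Markers of stroma and endothelium reached 54.4, 274 and 36.0 CPM in these groups, in the same order. The highest sums were in preleukemic_138 (mast cell, with 87.3 CPM of Ms4a2) and preleukemic_40 (stroma, with 273 CPM of Col1a2). The part of these markers in the results was not tested. In bulk RNA, fewer cells of a type cannot be told apart from less RNA per cell.

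Most p53 targets were expressed in all blasts. Per kb of exon sequence, Rps27l, a ribosomal protein paralog that p53 induces, had the highest level of all members in each of the 5 groups, from 70.8 ± 12.2 (SD, n = 3) CPM per kb in TgSpi1FA-/- preleukaemic to 281 ± 42.2 (n = 3) in model 2 leukaemic cells. Its reads may be shared in part with the paralog Rps27. Bax, which opens the outer mitochondrial membrane in apoptosis, came next in TgSpi1FA+/+ preleukaemic cells of model 1 with 53.9 ± 3.60 (n = 4) CPM per kb, followed by Ccng1, a cyclin that recruits a phosphatase to MDM2, with 41.0 ± 9.15. The ranges of mean ± SD of these 3 genes did not overlap in that group, whereas those of Bax and Rps27l did in TgSpi1FA-/- preleukaemic cells (68.3 ± 21.6 and 70.8 ± 12.2, n = 3). At the low end, Fas, Tnfrsf10b, Gdf15, Plk2 and Tigar had less than 1 CPM per kb in every group.

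The members differed widely in how far they varied between mice. On the scale of log2(CPM + 0.5), the SD over the 10 libraries of model 1 had a median of 0.53 over 33 members, with 15 members under 0.5. Ckap2, a spindle-associated protein gene, was among the steadiest, with 54.7 to 77.1 CPM in model 1 and 44.5 to 70.1 CPM in model 2. Gtse1, which binds p53 in G2 phase, ranged from 56.8 to 81.6 CPM in model 1. Ccnd2, Pmaip1, Phlda3 and Perp had SDs above 1.5 in both models. Ccnd2, Pmaip1 and Phlda3 were at or close to 0 in some libraries and well expressed in others of the same group, in both models. Perp showed this only in model 2. In model 1 it had at most 0.825 CPM in the preleukaemic and 4.55 to 18.5 CPM in the leukaemic libraries.

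Ccnd2, encoding cyclin D2, illustrates such differences within a group. Its level was 0 CPM in the TgSpi1FA-/- library preleukemic_77, against 365 CPM in preleukemic_224 and 582 CPM in preleukemic_40. In TgSpi1FA+/+ preleukaemic cells of model 1 it was 202, 134, 15.0 and 121 CPM in preleukemic_445, preleukemic_479, preleukemic_451 and preleukemic_138. In model 2, preleukemic_663 had 0.400 CPM and the other 6 libraries 32.4 to 340 CPM. Pmaip1, which encodes the BH3-only protein NOXA, had no count in the 4 TgSpi1FA+/+ preleukaemic libraries of model 1 nor in preleukemic_77 and preleukemic_224, and 20.6 CPM in preleukemic_40. All 3 leukaemic TgSpi1FA-/- libraries had it, with 75.2, 30.3 and 4.69 CPM in leukemic_26, leukemic_28 and leukemic_39. In model 2 it was counted only in preleukemic_812, with 24.4 CPM, and leukemic_601, with 8.49 CPM.

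**Figure D1:**
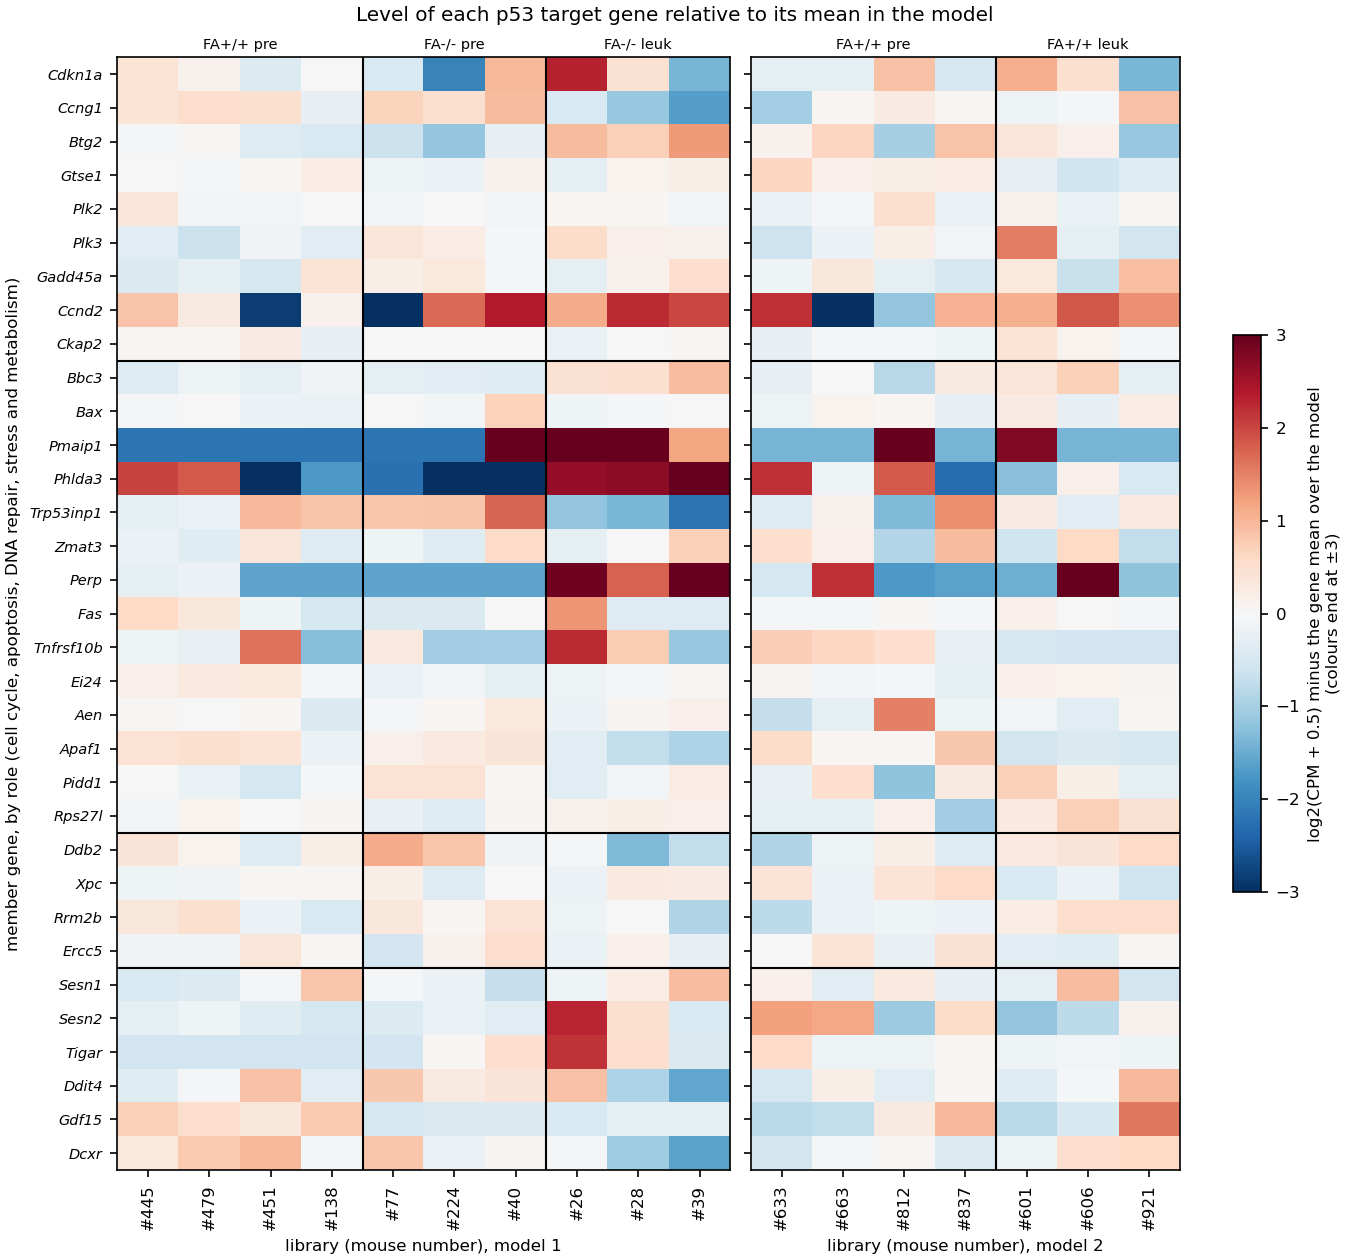
Level of 33 p53 target genes in each library, as log2(CPM + 0.5) minus the mean of the gene over the libraries of the model (colours, ending at ±3), with genes in rows by role and mice in columns by group. Ccnd2, Pmaip1, Phlda3 and Perp change from mouse to mouse within groups, while Ckap2 and Gtse1 are nearly even in model 1.

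Between TgSpi1FA-/- leukaemic and preleukaemic blasts, the p53 targets moved in both directions. A gene was called at a Benjamini-Hochberg adjusted p under 0.05 over all genes tested and a fold change of at least 1.5, in edgeR's quasi-likelihood test. The targets Btg2, Bbc3, Perp and Phlda3 were increased in leukaemic cells, and Trp53inp1, Ccng1 and Apaf1 were repressed. These were 7 of the 32 members tested (21.9%), with 13.3% of the 13393 genes tested called in this comparison, 6.82% increased and 6.49% decreased. The median log2 fold change of the members was 0.13, or 0.12 with members near 0 counts at their bound, and that of all genes was -0.0012. Groups did not overlap for 9 members, where 38.7% of all genes did not. Perp, Phlda3, Pmaip1, Tigar, Tnfrsf10b, Fas and Gdf15 passed the filter only through the libraries where they were high, so that their presence among the members tested already implied a difference between libraries.

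Of the 9 members that act on the cell cycle, 8 were tested, 1 was increased (Btg2), 1 was repressed (Ccng1) and 6 were not called. BTG2 is an antiproliferative cofactor of mRNA deadenylation. Btg2 (ENSMUSG00000020423, chromosome 1 from 134075170 to 134079120, minus strand) had 98.9, 83.7 and 124 CPM in the libraries leukemic_26, leukemic_28 and leukemic_39. In the TgSpi1FA-/- libraries preleukemic_77, preleukemic_224 and preleukemic_40 it had 32.8, 22.5 and 43.2 CPM. Each leukaemic library was above each preleukaemic one, and also above the TgSpi1FA+/+ libraries preleukemic_445, preleukemic_479, preleukemic_451 and preleukemic_138, with 49.3, 52.4, 38.8 and 37.2 CPM. The log2 fold change between the TgSpi1FA-/- groups was 1.64 (SE, the standard error, 0.26, adjusted p = 0.00966 from edgeR). The call held with each of 8 mice of model 1 left out in turn, at an adjusted p of at most 0.0329.

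Ccng1 (ENSMUSG00000020326, chromosome 11 from 40748552 to 40755311, minus strand), whose promoter held a match with 1 mismatch, moved the other way. It had 83.1, 51.6 and 36.2 CPM in the libraries leukemic_26, leukemic_28 and leukemic_39 and 181, 161 and 221 CPM in the libraries preleukemic_77, preleukemic_224 and preleukemic_40. All leukaemic levels were below all preleukaemic levels, including the 153, 165, 161 and 96.1 CPM of the 4 TgSpi1FA+/+ libraries in the same order. The group means were 57.0 ± 23.9 (SD, n = 3) and 188 ± 30.3 CPM (SD, n = 3), with a log2 fold change of -1.72 (SE 0.31, adjusted p = 0.0138 from edgeR). Without leukemic_28 the adjusted p was 0.0609.

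Cdkn1a, which encodes the cyclin-dependent kinase inhibitor p21 and is the best known p53 target, did not follow the groups. It had 83.8 CPM in the library leukemic_26, 22.6 in leukemic_28 and 5.91 in leukemic_39. In TgSpi1FA-/- preleukaemic cells it had 11.9, 3.74 and 33.2 CPM in preleukemic_77, preleukemic_224 and preleukemic_40, so that the groups overlapped widely. Its log2 fold change of 1.204 (SE 0.92, adjusted p = 0.402) rested on leukemic_26 and was -0.18 without it. Gtse1, Ckap2, Gadd45a and Plk3, whose products act in G2 phase, on the spindle and as stress sensors, had log2 fold changes between -0.06 and 0.10 and adjusted p of at least 0.775.

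Of the 15 members that act in apoptosis, 14 were tested. Bbc3, Perp and Phlda3 were increased, Trp53inp1 and Apaf1 were repressed, and 9 were not called. Bbc3 (ENSMUSG00000002083, chromosome 7 from 16308393 to 16318205, plus strand) encodes PUMA, a BH3-only protein that starts mitochondrial apoptosis. It had 29.5, 29.8 and 40.9 CPM in the leukaemic libraries and 17.6, 16.5 and 16.4 CPM in the TgSpi1FA-/- preleukaemic ones. The 7 preleukaemic libraries of model 1 lay close together, between 16.2 and 19.7 CPM, and every leukaemic library was above them. The log2 fold change was 0.99 (SE 0.19, adjusted p = 0.0165 from edgeR), and without preleukemic_224 the adjusted p was 0.0575.

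Perp, which encodes a membrane protein of desmosomes that is induced in p53-dependent apoptosis, was at 0 counts in the 3 TgSpi1FA-/- preleukaemic libraries. The libraries leukemic_26, leukemic_28 and leukemic_39 had 393, 178 and 729 counts, or 10.8, 4.55 and 18.5 CPM. Against a floor of 3 counts per library, its level was at least 119-fold higher after progression (adjusted p = 0.0322 from edgeR). In TgSpi1FA+/+ preleukaemic cells, preleukemic_445 and preleukemic_479 had 23 and 26 counts and preleukemic_451 and preleukemic_138 had 0. The call was lost with 6 of 8 mice of model 1 left out in turn (adjusted p from 0.0515 to 0.0884 in these), and it held without leukemic_26 or preleukemic_479.

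Phlda3, a repressor of AKT signalling, was switched on or off between mice of several groups. It had 25.8, 26.7 and 66.3 CPM in the leukaemic libraries, 0.394, 0 and 0 CPM in the TgSpi1FA-/- libraries preleukemic_77, preleukemic_224 and preleukemic_40, and 16.6, 14.6, 0 and 0.767 CPM in the TgSpi1FA+/+ libraries preleukemic_445, preleukemic_479, preleukemic_451 and preleukemic_138. The leukaemic libraries were above all others, and among the preleukaemic libraries only the nearly alike pair preleukemic_445 and preleukemic_479 exceeded 1 CPM. The log2 fold change between the TgSpi1FA-/- groups was 8.22 (SE 2.36, adjusted p = 0.0477 from edgeR), and the adjusted p was between 0.0539 and 0.131 with any of 8 mice left out, preleukemic_445 (0.0674) and preleukemic_479 (0.0685) among them.

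Trp53inp1 and Apaf1 fell. Trp53inp1 (ENSMUSG00000028211, chromosome 4 from 11156431 to 11174379, plus strand) encodes a nuclear protein that promotes p53 phosphorylation and autophagy. It had 5.10, 4.45 and 2.26 CPM in the leukaemic libraries and 22.3, 22.8 and 42.7 CPM in the TgSpi1FA-/- preleukaemic ones. Of the TgSpi1FA+/+ libraries, preleukemic_445 and preleukemic_479 lay between both groups at 9.98 and 10.6 CPM, and preleukemic_451 and preleukemic_138 within the range of the TgSpi1FA-/- preleukaemic ones at 24.5 and 22.6 CPM. The log2 fold change was -2.89 (SE 0.51, adjusted p = 0.0125 from edgeR), and it was called with each of 8 mice left out, at an adjusted p of at most 0.0495.

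Apaf1, the scaffold of the caspase-activating apoptosome, had 94.5, 71.1 and 62.0 CPM in the leukaemic libraries and 132, 145 and 154 CPM in the TgSpi1FA-/- preleukaemic ones, again without overlap. The TgSpi1FA+/+ libraries preleukemic_445, preleukemic_479 and preleukemic_451 had 158 to 166 CPM and preleukemic_138 had 104 CPM. Its log2 fold change was -0.92 (SE 0.21, adjusted p = 0.0257 from edgeR), with the call lost without preleukemic_77, preleukemic_224, preleukemic_40, leukemic_28 or leukemic_39 (adjusted p from 0.0556 to 0.0948). Bax had 83.0, 87.99 and 91.8 CPM in leukaemic cells, 79.5 to 90.2 CPM in TgSpi1FA+/+ cells and 89.6, 86.3 and 147 CPM in TgSpi1FA-/- preleukaemic cells, with the highest level in preleukemic_40 and a log2 fold change of -0.30 (SE 0.19, adjusted p = 0.320). Rps27l, Ei24, Zmat3, Aen and Pidd1 had log2 fold changes between -0.36 and 0.33 and adjusted p of at least 0.138. Pmaip1, Fas and Tnfrsf10b, which encode NOXA and a pair of death receptors, had standard errors of at least 1.59 and adjusted p of at least 0.367.

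**Figure D2:**
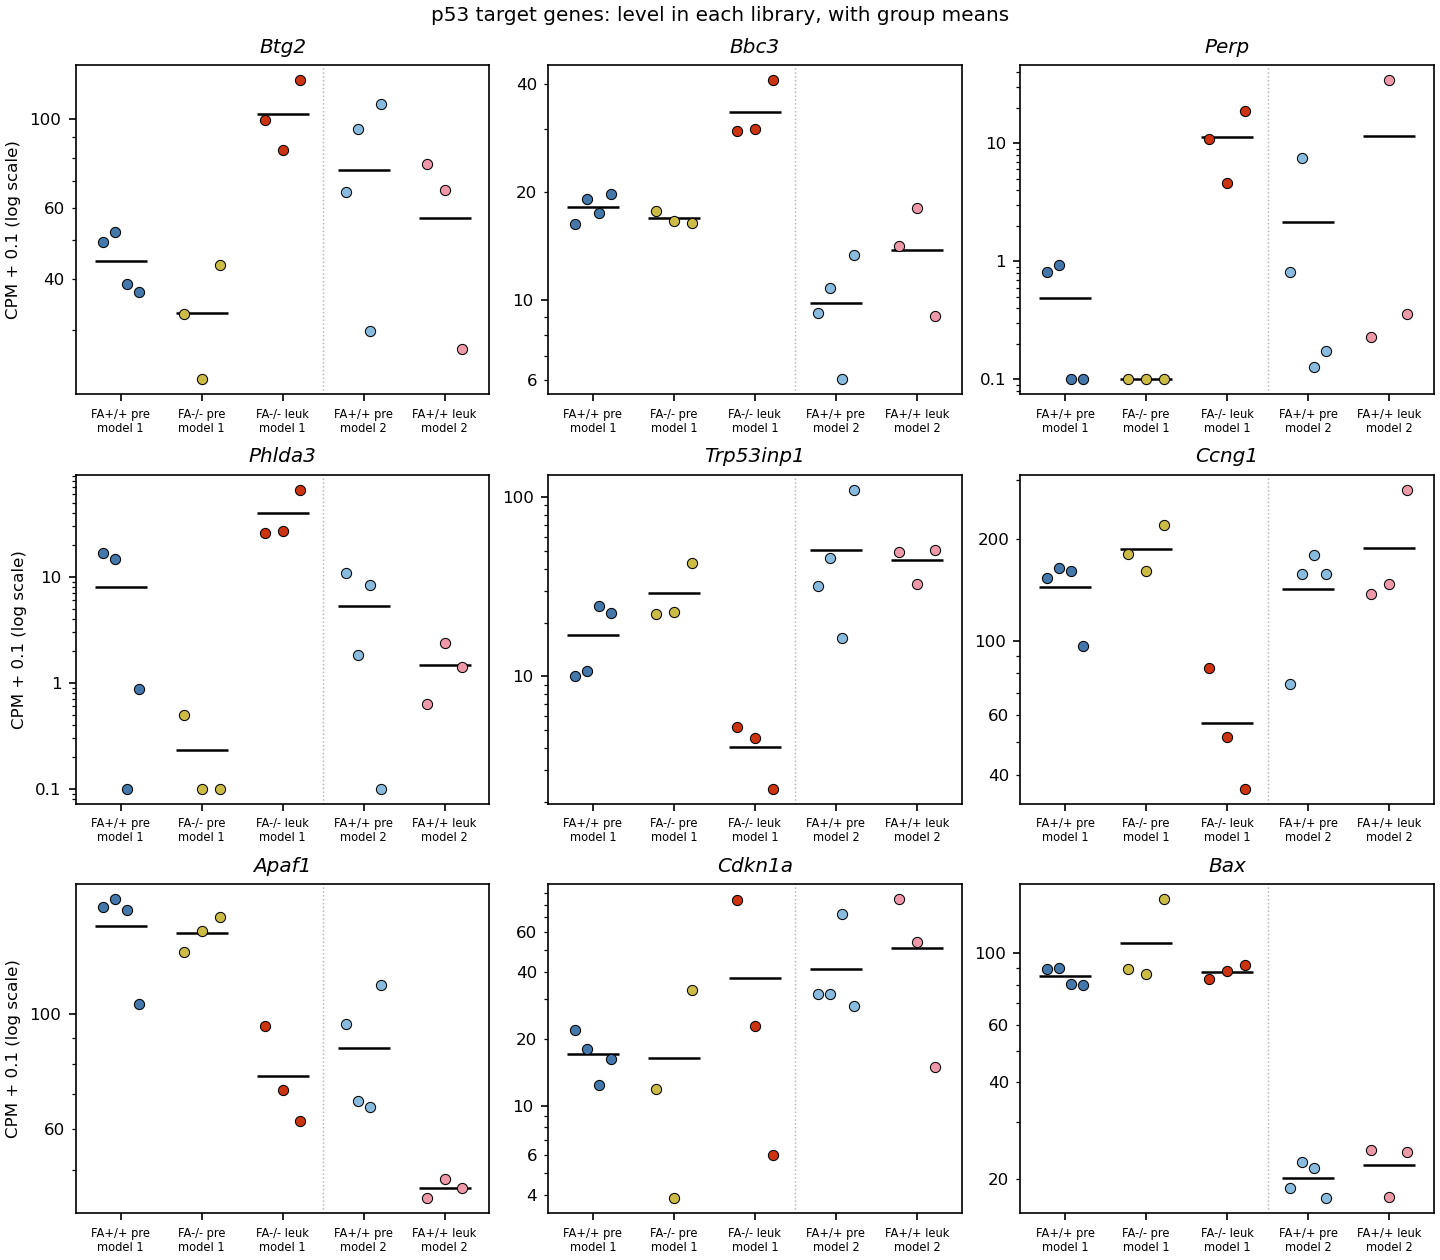
Level of the 7 called p53 targets and of Cdkn1a and Bax in each library (points, CPM + 0.1 on a log axis), by group, with the group mean as a line and a dotted line between models. In model 1 the 3 TgSpi1FA-/- leukaemic libraries lie above the preleukaemic ones for Btg2, Bbc3, Perp and Phlda3 and below them for Trp53inp1, Ccng1 and Apaf1, while the points of Cdkn1a overlap.

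No member of the DNA repair group (4 tested) or of the stress and metabolism group (6 tested) was called. Ddb2, which recognises ultraviolet damage, had 6.69, 2.40 and 3.88 CPM in the leukaemic libraries and 15.3, 12.5 and 6.28 CPM in the TgSpi1FA-/- preleukaemic ones, where preleukemic_40 overlapped with leukemic_26. The log2 fold change was -1.39 (SE 0.47, adjusted p = 0.0791 from edgeR and 0.0261 from DESeq2's Wald test), and without leukemic_26 edgeR also called it (-1.84, adjusted p = 0.0374). Xpc, Rrm2b and Ercc5, which act in nucleotide excision repair and nucleotide supply, had log2 fold changes of 0.19, -0.61 and -0.18 and adjusted p of 0.573, 0.248 and 0.6996. Sesn2, a leucine sensor that restrains mTORC1, had 464, 132 and 68.9 CPM in the libraries leukemic_26, leukemic_28 and leukemic_39 and 71.0, 82.4 and 74.7 CPM in preleukemic_77, preleukemic_224 and preleukemic_40. Only leukemic_26 and leukemic_28 were above the preleukaemic range, and the log2 fold change of 1.54 (SE 0.56) had an adjusted p of 0.0925 from edgeR and 0.0354 from DESeq2. Without leukemic_39 edgeR also called Sesn2 (adjusted p = 0.0393). Sesn2 was between 65.3 and 86.2 CPM in TgSpi1FA+/+ cells. Its relative Sesn1 had a log2 fold change of 0.72 (SE 0.40, adjusted p = 0.242). Ddit4, another inhibitor of mTORC1, had 88.2, 24.6 and 15.9 CPM in leukemic_26, leukemic_28 and leukemic_39 and 57.7 to 83.5 CPM in TgSpi1FA-/- preleukaemic cells (-0.66, SE 0.60, adjusted p = 0.480). Tigar, which lowers glycolysis, was at 0 counts in the TgSpi1FA+/+ libraries and in preleukemic_77, with 103, 22 and 2 counts in leukemic_26, leukemic_28 and leukemic_39. It had 9 and 17 counts in preleukemic_224 and preleukemic_40, so that the TgSpi1FA-/- stages overlapped (adjusted p = 0.424 from edgeR). Gdf15 had at most 4 counts in each of the 6 TgSpi1FA-/- libraries.

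The RNA of p53 itself varied between mice within every group of model 1. Trp53 (ENSMUSG00000059552, chromosome 11 from 69580359 to 69591873, plus strand) had 542, 547, 37.8 and 220.3 CPM in the TgSpi1FA+/+ libraries preleukemic_445, preleukemic_479, preleukemic_451 and preleukemic_138, 526, 0.789 and 433 CPM in the TgSpi1FA-/- libraries preleukemic_77, preleukemic_224 and preleukemic_40, and 377, 41.4 and 0 CPM in the libraries leukemic_26, leukemic_28 and leukemic_39. The library leukemic_39 had no Trp53 count of 38161124 counts in all, which allows up to 3 counts, and preleukemic_224 had 27 counts. The log2 fold change between the TgSpi1FA-/- groups was -1.196 (SE 2.08, adjusted p = 0.732). In leukemic_39, the library with no Trp53 count, Btg2, Bbc3, Perp and Phlda3 had their highest levels of the 10 libraries. Ccng1, Trp53inp1 and Apaf1 had their lowest levels there, and Cdkn1a was at 5.91 CPM. Apart from Cdkn1a, these genes were called and did not overlap between leukaemic and preleukaemic libraries. Their extremes therefore had to lie in a leukaemic library. In preleukemic_224, where Trp53 was at 0.789 CPM, Cdkn1a had its lowest level of model 1, 3.74 CPM, and Ccng1 stood at 161 CPM. Spi1 RNA was also close to 0 in leukemic_39, at 3.88 CPM against 220 to 1061 CPM in the other libraries of model 1. In the second table it was 4.67 CPM in leukemic_39 and at least 217 CPM in the other mice. These are values of single libraries, and the part of Trp53 or Spi1 in the levels of the p53 targets was not tested. The sample labels give no Trp53 status. From exome sequencing of some of its mice, the paper reports Trp53 mutations in blasts of both genotypes. Its mutation calls for single mice were not used here.

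Mdm2, the p53-induced ubiquitin ligase of p53, had 100.4, 98.1 and 86.6 CPM in the leukaemic libraries and 79.8, 67.3 and 86.6 CPM in preleukemic_77, preleukemic_224 and preleukemic_40, with a log2 fold change of 0.29 (SE 0.13, adjusted p = 0.163). Mdm4, whose product binds and inhibits p53, had 156, 184 and 310.3 CPM in leukaemic and 97.7, 66.2 and 80.9 CPM in TgSpi1FA-/- preleukaemic libraries. All leukaemic levels of Mdm4 exceeded the preleukaemic ones, with a log2 fold change of 1.41 (SE 0.25, adjusted p = 0.0127 from edgeR). Of the 21 p53 regulators listed, 19 were tested, with 1 increased (Mdm4) and 2 repressed. These were the damage kinases Atr (log2 fold change -0.91, adjusted p = 0.0335) and Chek2 (-0.78, adjusted p = 0.0347).

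A second list of 26 other p53 targets had 24 genes tested, of which Traf4 was increased and Fdxr, Rev3l, Ankra2 and Tm7sf3 were repressed in TgSpi1FA-/- leukaemic cells. Traf4, a signalling adaptor of the TRAF family, had a log2 fold change of 1.65 (adjusted p = 0.0188), and Fdxr, a mitochondrial reductase, one of -1.02 (adjusted p = 0.0259). Rev3l, Ankra2 and Tm7sf3 had values of -0.92, -0.91 and -0.89 and adjusted p of 0.0308, 0.0284 and 0.0312. The median over the 24 genes was -0.30, below that of the 32 members tested. The counts of these lists stand beside 13.3% of all genes called in this comparison. All lists were chosen with earlier results of these data known, so that their counts are descriptive only. Of 12 G2/M genes 1 was called, Aurka (1.04, adjusted p = 0.0148), with a median of 0.10 over the list, and of 12 stress response genes 4 were called, all increased, with a median of 0.60. These were Atf3 (3.60, adjusted p = 0.00556), Psat1 (0.96, adjusted p = 0.01001), Trib3 (1.45, adjusted p = 0.0242) and Phgdh (1.52, adjusted p = 0.0259), of which ATF3 and TRIB3 belong to the response to unfolded protein and amino acid shortage and PSAT1 and PHGDH to serine synthesis.

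Between TgSpi1FA-/- and TgSpi1FA+/+ preleukaemic cells, edgeR called none of the 32 members, where 0.00747% of all genes (1 gene) were called. With so few calls over all genes, the lack of calls does not show that the members were unchanged. The unadjusted p was under 0.05 for 8 members, with 8.65% of all genes under it, and groups did not overlap for 4 members, with 8.53% of all genes not overlapping. The median log2 fold change was -0.0072. These 8 were Gdf15, Ei24, Phlda3, Pmaip1, Perp, Tigar, Pidd1 and Plk3, of which Gdf15, Phlda3, Pmaip1, Perp and Tigar had at least 1 library without a count. DESeq2's Wald test called 2 members, Pmaip1 and Gdf15, and 0.994% of its genes, which include those with low counts. Among the 13393 genes tested by edgeR, from which the members come, DESeq2 called 252.

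Gdf15, a stress-induced cytokine gene, had 22, 17, 13 and 26 counts in the TgSpi1FA+/+ libraries preleukemic_445, preleukemic_479, preleukemic_451 and preleukemic_138 and 0, 1 and 1 count in the TgSpi1FA-/- libraries preleukemic_77, preleukemic_224 and preleukemic_40. Every TgSpi1FA+/+ library was thus above every TgSpi1FA-/- one, at low levels of 0.417 to 0.738 CPM, and the ratio of the group levels was 28.7 (95% exact interval 7.68 to 241, for counting error only). Its adjusted p was 0.210 from edgeR and 0.00479 from DESeq2. Pmaip1 was called by DESeq2 through the single library preleukemic_40, as described above, with 0 counts in the other 6 preleukaemic libraries. Plk3, a stress-responsive kinase, and Pidd1, the scaffold of the PIDDosome, did not overlap between the groups. Plk3 had 9.30 to 13.8 CPM in TgSpi1FA+/+ and 14.6 to 19.1 CPM in TgSpi1FA-/- cells, with a log2 fold change of 0.54 (SE 0.22, adjusted p = 0.557). Pidd1 had 20.2 to 29.7 CPM and 30.4 to 40.2 CPM, with a log2 fold change of 0.50 (SE 0.20, adjusted p = 0.557). Ei24 was lower in TgSpi1FA-/- cells without overlap, at 74.0 to 84.4 CPM against 86.5 to 111 CPM, with a log2 fold change of -0.36 (SE 0.12, adjusted p = 0.535).

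Cdkn1a had 21.9, 17.9, 12.2 and 16.2 CPM in the TgSpi1FA+/+ libraries preleukemic_445, preleukemic_479, preleukemic_451 and preleukemic_138, inside the range of 3.74 to 33.2 CPM of the TgSpi1FA-/- libraries. Its log2 fold change was -0.07 (SE 0.85, adjusted p = 0.989), and it was 0.07 without preleukemic_445, 0.11 without preleukemic_77 and 0.39 without preleukemic_224. Bbc3, Bax and Ccng1 had log2 fold changes of -0.11 (SE 0.18), 0.34 (0.18) and 0.38 (0.28), with adjusted p of 0.920, 0.632 and 0.750. The largest level of Bax in model 1, 147 CPM, was in preleukemic_40, which also had the highest Ccng1, Trp53inp1 and Aen. Of the regulators (19 tested) and the other p53 targets (24 tested), none was called. Trp53, Mdm2 and Mdm4 had log2 fold changes of -0.07, -0.05 and -0.10, with adjusted p of at least 0.943. This comparison shares its TgSpi1FA-/- libraries with the previous one. Without preleukemic_445 or preleukemic_479, as without any other mouse, no member was called.

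In model 2, where cells progressed with FANCA present, none of the 29 members tested was called between leukaemic and preleukaemic blasts, and the smallest adjusted p of a member was 0.162. No gene of the whole table was called in this comparison (0% of 12970). The unadjusted p was under 0.05 for 6 members, with 19.9% of all genes under it. The median log2 fold change was 0.28, against -0.03 for all genes, and it was 0.0062 without leukemic_921 and 0.07 without leukemic_601. DESeq2's Wald test called 1 member, Tnfrsf10b, and 2.02% of its genes, which include those with low counts. Among the 12970 genes tested by edgeR, from which the members come, DESeq2 called 437.

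Tnfrsf10b, which encodes the mouse TRAIL receptor, had 32, 28, 23 and 7 counts in the libraries preleukemic_633, preleukemic_663, preleukemic_812 and preleukemic_837 and 2, 1 and 1 count in the libraries leukemic_601, leukemic_606 and leukemic_921. No leukaemic library reached the lowest preleukaemic one, and the preleukaemic level was 16.2 times the leukaemic one (95% exact interval 6.12 to 60.8, for counting error only). The adjusted p was 0.162 from edgeR and 0.0160 from DESeq2. Apaf1 had 44.0, 48.0 and 46.0 CPM in leukaemic and 95.4, 67.7, 65.9 and 114 CPM in preleukaemic libraries, again without overlap. Its log2 fold change of -0.90 (SE 0.24, adjusted p = 0.162) stood beside the -0.92 of TgSpi1FA-/- cells in model 1.

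Levels did not overlap between the stages of model 2 for 7 members, where 20.1% of all genes did not, and the others were Gtse1, Xpc, Ddb2, Rrm2b and Rps27l. Rrm2b, the p53-inducible subunit of ribonucleotide reductase, had 33.4, 41.3 and 41.6 CPM in leukaemic and 16.4, 24.7, 25.8 and 25.0 CPM in preleukaemic cells, with a log2 fold change of 0.75 (SE 0.24, adjusted p = 0.176). Gtse1 was lower, at 25.3, 19.9 and 23.4 CPM against 47.7, 33.5, 35.1 and 35.5 CPM, with a log2 fold change of -0.73 (SE 0.23, adjusted p = 0.173). Xpc, the damage sensor of nucleotide excision repair, had 9.72, 11.8 and 8.71 CPM in leukaemic and 18.2, 12.0, 18.1 and 20.2 CPM in preleukaemic cells, with a fitted log2 difference of -0.76 (adjusted p = 0.228). Ddb2 was higher, at 13.4, 14.4 and 16.5 CPM against 5.57, 9.65, 12.6 and 8.16 CPM, with a log2 fold change of 0.72 (SE 0.35, adjusted p = 0.302). Rps27l had a log2 fold change of 0.81 (adjusted p = 0.185).

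The targets that were called in model 1 overlapped between the stages of model 2, except Apaf1. Btg2 had 65.8, 94.0, 29.6 and 108 CPM in preleukaemic and 77.3, 66.3 and 26.8 CPM in leukaemic libraries (log2 fold change -0.39, standard error 0.50, adjusted p = 0.698). Ccng1 had 74.2, 158, 179.9 and 158 CPM and 137, 147 and 281 CPM (0.40, 0.37 and 0.575 in the same order). Bbc3 had 9.10, 10.7, 5.92 and 13.3 CPM and 14.0, 18.0 and 8.97 CPM (0.49, 0.40 and 0.531). In each of these genes the spread within a stage covered the difference between stages. Trp53inp1 had its highest level of all libraries, 110.1 CPM, in preleukemic_837, and Perp had 34.1 CPM in the library leukemic_606 and at most 0.255 CPM in the other leukaemic ones. In preleukaemic cells, Trp53inp1 had 31.7, 45.8 and 16.4 CPM in preleukemic_633, preleukemic_663 and preleukemic_812, and its 3 leukaemic libraries lay between 32.6 and 50.8 CPM. Perp had 0.706, 7.42, 0.0267 and 0.0742 CPM in the 4 preleukaemic libraries. Phlda3 had 10.8, 1.75, 8.37 and 0 CPM in preleukaemic and 0.539, 2.28 and 1.31 CPM in leukaemic libraries.

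Cdkn1a had 31.6, 31.7, 72.2 and 27.97 CPM in preleukemic_633, preleukemic_663, preleukemic_812 and preleukemic_837 and 84.4, 54.3 and 14.8 CPM in leukemic_601, leukemic_606 and leukemic_921, with a log2 fold change of 0.32 (SE 0.58, adjusted p = 0.788) that was -0.24 without leukemic_601. In the library preleukemic_812, Aen, an exonuclease gene induced by p53, also had its highest level, 232 CPM against 49.0 to 83.6 CPM in the other 6. Sesn2 had 105, 99.8, 20.5 and 65.7 CPM in preleukaemic and 19.2, 25.7 and 48.5 CPM in leukaemic cells, where preleukemic_812 overlapped with the leukaemic libraries (-1.23, SE 0.57, adjusted p = 0.281). Gdf15 was high in single mice of both stages, with 0, 1, 21 and 49 counts in preleukaemic and 0, 5 and 74 counts in leukaemic libraries. Bax had 18.7, 22.5, 21.5 and 17.4 CPM in preleukaemic and 24.6, 17.5 and 24.2 CPM in leukaemic cells of model 2. It had 79.5 to 147 CPM in the table of model 1, but 26.4 to 65.3 CPM for 7 of these mice in the second table. Such levels thus also differed between deposited tables of the same mice. Strain, library protocol and deposited table cannot be told apart in the levels of the 2 models. Trp53 was counted in every library of model 2, with 514, 477, 229 and 623 CPM in preleukaemic and 245.7, 120.1 and 257 CPM in leukaemic cells. The groups overlapped through preleukemic_812, and the log2 fold change was -1.15 (SE 0.40, adjusted p = 0.188). Mdm2 had a log2 fold change of 0.45 (SE 0.18, adjusted p = 0.215) and Mdm4 one of -0.22 (SE 0.35, adjusted p = 0.758). None of the regulators (19 tested) or the other p53 targets (24 tested) was called.

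**Figure D3:**
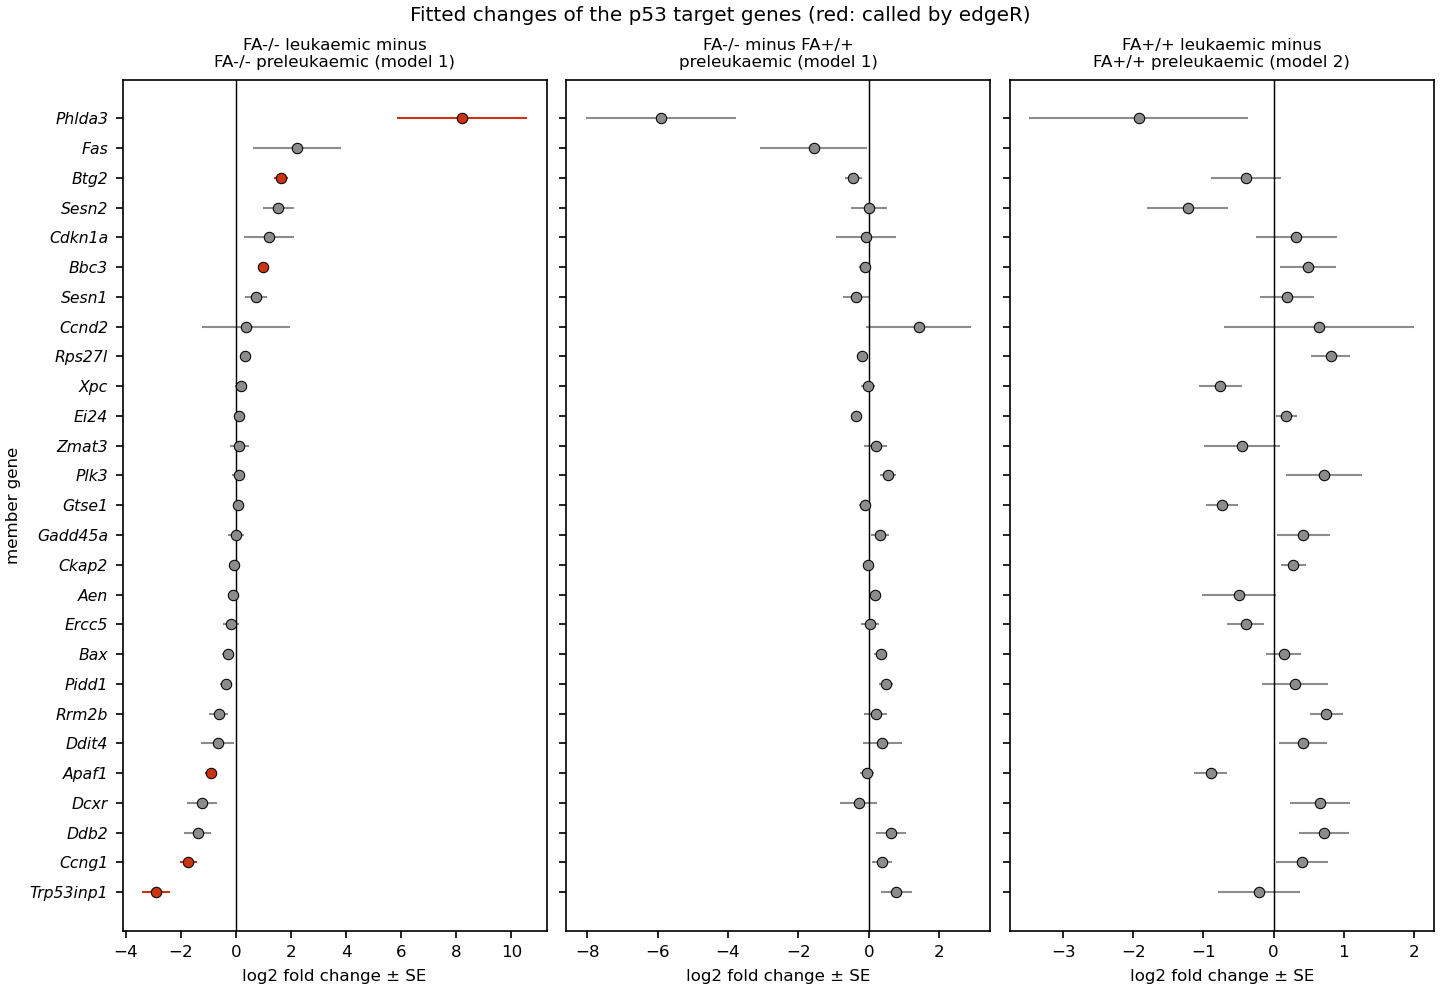
Fitted log2 fold change with its standard error for the 27 p53 targets that were tested in model 1 and had no group with 3 counts or fewer in every library in a comparison in which they were tested (Fas was not tested in model 2), in the 3 comparisons (panels, each with its own axis range), in the order of the first panel. Called genes are red: 6 in the first panel, from Phlda3 at 8.22 to Trp53inp1 at -2.89, and none in the others.

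The change from preleukaemic to leukaemic cells was then set against that of the other model as an interaction term, with the 17 libraries of both tables fitted together. Ccng1 was the only one of 32 members called, with 4.61% of 14597 genes called (2.76% with a higher and 1.85% with a lower change in model 1). The leukaemic change of Ccng1 was lower in TgSpi1FA-/- cells of model 1 than in TgSpi1FA+/+ cells of model 2 by a log2 difference of -2.13 (SE 0.51, adjusted p = 0.0378 from edgeR). The call was lost without any of 9 of the 13 mice compared (all 6 TgSpi1FA-/- mice except leukemic_26, and preleukemic_633, leukemic_601, leukemic_606 and leukemic_921), with adjusted p between 0.0521 and 0.0890, and with no filter on low counts (0.0509). FANCA status, route of progression (after serial blood transfusions in model 2), strain, library protocol and deposited table cannot be told apart in this difference.

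DESeq2's Wald test called 11 members in the same comparison, with 9.31% of its genes called. Its genes include those with low counts that were not tested by edgeR. Among the 14597 genes tested by edgeR, from which the members come, DESeq2 called 2000. Btg2 (log2 difference 2.03, standard error 0.59), Sesn2 (2.74, 0.85) and Gtse1 (0.80, 0.24) had higher changes in model 1, with adjusted p of 0.0580, 0.0683 and 0.0618 from edgeR and 0.0120, 0.0143 and 0.0165 from DESeq2. Ddb2 (-2.12, 0.60), Trp53inp1 (-2.70, 0.79) and Rrm2b (-1.38, 0.42) had lower changes, with adjusted p of 0.0555, 0.0596 and 0.0647 from edgeR and 0.00830, 0.0127 and 0.0244 from DESeq2. Ddb2 fitted lower in the leukaemic cells of model 1 and higher in those of model 2, though edgeR called neither change. The other members called by DESeq2 were Tnfrsf10b, Xpc and Phlda3 with higher and Dcxr, a carbonyl reductase, with lower changes in model 1. Apaf1 had a difference of -0.04 (SE 0.31, adjusted p = 0.959), Bbc3 one of 0.49 (SE 0.41, adjusted p = 0.480), Bax one of -0.45 (0.27 and 0.311) and Cdkn1a one of 0.90 (1.16 and 0.655), which was -0.49 without leukemic_26.

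In model 1, the levels of Gtse1, Xpc and Tnfrsf10b overlapped between the TgSpi1FA-/- stages, and those of Rrm2b did not. Gtse1 had 56.8, 74.9 and 81.0 CPM in leukemic_26, leukemic_28 and leukemic_39 and 63.3, 61.4 and 76.6 CPM in preleukemic_77, preleukemic_224 and preleukemic_40. Rrm2b had 12.4, 13.8 and 7.18 CPM and 17.5, 14.5 and 18.96 CPM in the same libraries and was lower in each leukaemic one, the opposite order to model 2. Xpc had 21.4, 29.9 and 28.8 CPM and 27.8, 18.5 and 24.001 CPM, and Tnfrsf10b had 191, 61 and 2 counts and 30, 3 and 3 counts. In TgSpi1FA+/+ cells Tnfrsf10b had 19, 17, 102 and 0 counts in preleukemic_445, preleukemic_479, preleukemic_451 and preleukemic_138. In Dcxr, the libraries leukemic_26, leukemic_28 and leukemic_39 had 4.22, 1.87 and 1.12 CPM and the TgSpi1FA-/- preleukaemic ones 8.27, 3.83 and 4.72 CPM, while in model 2 the leukaemic libraries had 2.69, 4.52 and 4.82 CPM and the preleukaemic ones 1.92, 2.92, 3.15 and 2.18 CPM. The stages overlapped in both models. Among the regulators, Chek2 (-1.19, adjusted p = 0.0390), Hipk2 (3.19, adjusted p = 0.0381) and Cop1 (1.15, adjusted p = 0.0484) were called in this comparison, which encode a checkpoint kinase, a kinase that phosphorylates p53 and a ubiquitin ligase of p53. Of the other p53 targets, Ankra2 (-1.53, adjusted p = 0.0380) and Ier5 (1.72, adjusted p = 0.0427) were called, and Mdm4 had a difference of 1.61 (adjusted p = 0.0528).

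A second deposited table held other counts for 7 mice of model 1, with 35497594 to 171572736 counts per library, and no comparison between groups was tested in it here. In deviations from the mean of the 7 mice over 13078 genes, 6 libraries of the first table were most like the library of the same mouse in the second (r from 0.652 to 0.859). The library labelled preleukemic_445 was more like preleukemic_479 of the second table (r = 0.623) than like its own (r = 0.524). In the second table, 31 members passed the filter on low counts, and preleukemic_445 had the highest level of the 4 TgSpi1FA+/+ libraries in 21 of them, against 21.9% of all genes. It had the lowest in 3, against 24.1% of all genes, and lay within the others in 7. The lowest were Ccnd2 (0.262 CPM against 5.10 to 7.62), Gadd45a (26.9 against 27.1 to 61.8) and Plk3 (13.6 against 13.9 to 15.9). Of the high ones, named here for their values, it had 142 CPM of Cdkn1a (7.64 to 14.9 CPM in preleukemic_138, preleukemic_451 and preleukemic_479), 399 CPM of Ccng1 (69.5 to 107), 146 CPM of Zmat3 (20.1 to 46.3) and 65.3 CPM of Bax (28.9 to 40.5). It was also the only one of the 7 libraries with more than 1 CPM of Eda2r (11.7 CPM) and of Plk2 (11.8 CPM), the members without a test in model 1. Trp53 was at 447 CPM in it. In the first table, Cdkn1a of preleukemic_445 was 21.9 CPM and its Plk2 0.187 CPM.

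The second table holds TgSpi1FA-/- leukaemic and TgSpi1FA+/+ preleukaemic mice, so that stage and genotype cannot be told apart in it. Their levels did not overlap in 9 of the 31 members, against 18.6% of all genes. Of the 7 members called in the first table, Ccng1, Perp and Trp53inp1 were among these 9, and Btg2, Bbc3, Apaf1 and Phlda3 overlapped. Ccng1 had 49.4, 38.0 and 42.1 CPM in leukemic_26, leukemic_28 and leukemic_39, below the 69.5 to 399 CPM of the 4 TgSpi1FA+/+ libraries, and Perp had 0.870, 4.14 and 15.1 CPM, above the 0 to 0.445 CPM of TgSpi1FA+/+. Trp53inp1 had 6.75, 5.65 and 5.14 CPM in the leukaemic libraries and 10.996 to 86.7 CPM in TgSpi1FA+/+. Trp53 was again close to 0 in leukemic_39 (0.328 CPM) and was 0.641 CPM in leukemic_28, where the first table had 41.4 CPM. Cdkn1a in leukemic_26, which carried its change in the first table, was 9.99 CPM in the second, and Sesn2 in leukemic_26 was high in both (464 and 300.1 CPM). Btg2 had 68.5, 115 and 111 CPM in the leukaemic libraries and 131, 69.1, 101 and 30.6 CPM in preleukemic_138, preleukemic_445, preleukemic_451 and preleukemic_479, and Bbc3 had 8.57 to 17.9 CPM and 4.84 to 15.5 CPM. Apaf1 had 127, 88.3 and 37.7 CPM in leukemic_26, leukemic_28 and leukemic_39 and 115 to 158 CPM in TgSpi1FA+/+, and Phlda3 had 15.2, 16.4 and 41.6 CPM and 0.0372 to 41.8 CPM. Whether the tables hold the same cultures was not tested.

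**Figure D4:**
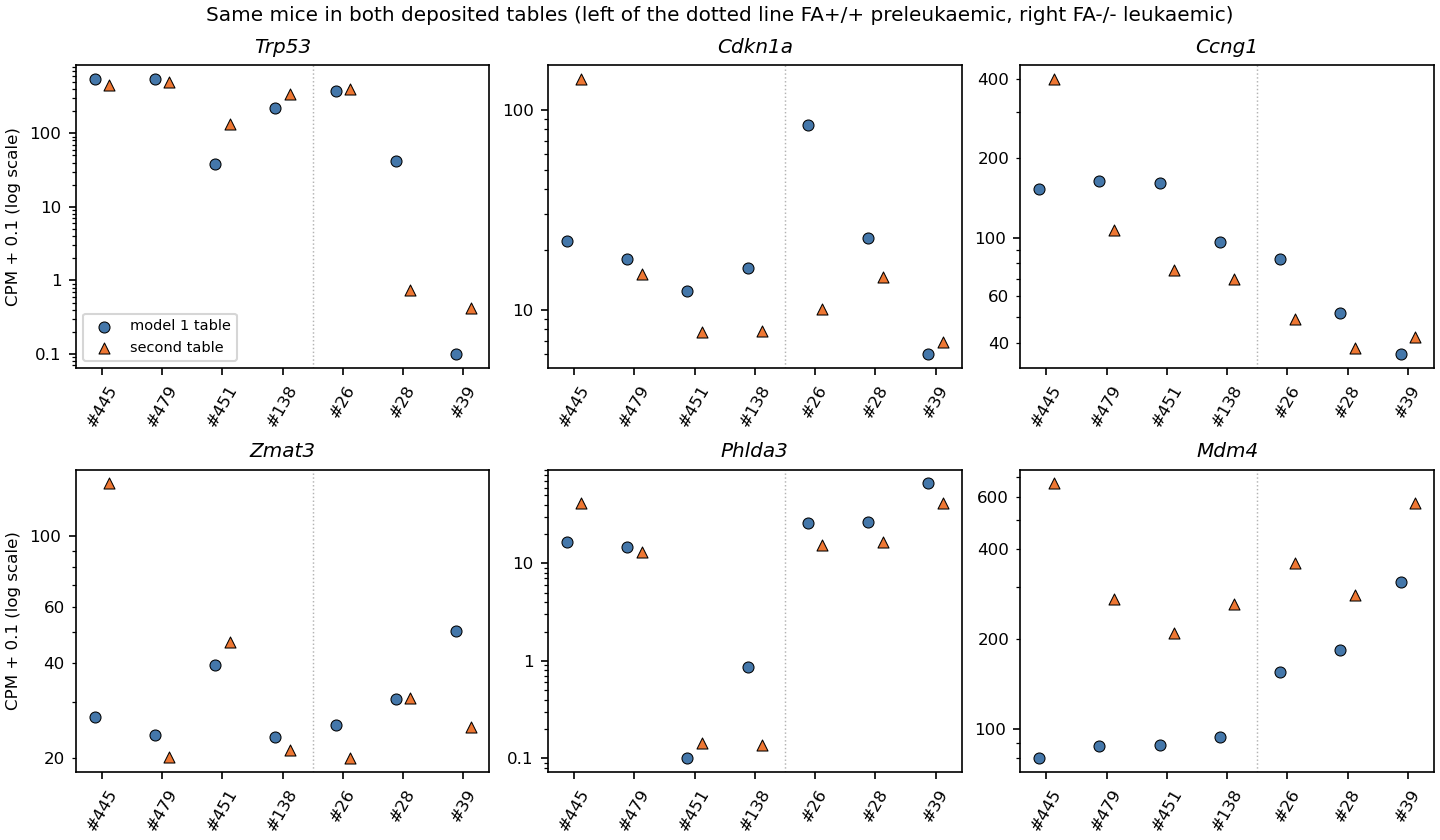
Level of Trp53, of the p53 targets Cdkn1a, Ccng1, Zmat3 and Phlda3 and of Mdm4 in the 7 mice of model 1 that are in both deposited tables (CPM + 0.1 on a log axis, circles for the table of model 1 and triangles for the second table), with TgSpi1FA+/+ preleukaemic mice left and TgSpi1FA-/- leukaemic mice right of the dotted line. The second library of preleukemic_445 has 142 CPM of Cdkn1a and 399 CPM of Ccng1, far above its first, and leukemic_39 has close to no Trp53 in both.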

How the data were processed

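The study sequenced polyA RNA of cultured erythroid blasts from 17 mice, with stranded TruSeq libraries from 400 ng of RNA and 8 min of fragmentation in model 1 and 300 ng and 2 min in model 2. Per the submitters' processing notes, bcl2fastq 2.17.1.14, STAR 2.5.3a and HTSeq 0.6.1p1 were used, with the mm10/GRCm38 build. The authors deposited unnormalised read counts of Ensembl genes, 29964576 to 40514205 per library over both models. The table of model 2 was deposited more than once and read once. In a second table of 7 mice of model 1, single libraries far from their group were looked for and no comparison between groups was tested. The members and all lists were chosen with earlier results of these data known. Groups came from the sample titles.

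Counts were filtered (filterByExpr), scaled by TMM and tested with glmQLFit and glmQLFTest of edgeR 4.0.16 (R 4.3.3), in a fit of the 3 groups of model 1, a fit of model 2 and a fit of all 17 libraries for the interaction, over whole tables and with Benjamini-Hochberg adjustment. The call needed an adjusted p under 0.05 together with a change of at least 1.5 times. An adjusted p with no tool named is edgeR's. An exact permutation test over mice cannot go below p = 0.1 for 3 against 3 or 0.0571 for 3 against 4 (two-sided), so single genes were tested in the fits across all genes. A group without a count in any library was set to a floor of 3 counts per library, and one with 1 to 3 counts in a library got a count ratio with its interval and the floor only in the bounded medians. Such floors and count intervals hold for counting error alone. Gene positions and exon lengths came from GENCODE M21 (GRCm38). Scripts were tested on simulated counts.

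Values in every library of the compared groups were given for members called in any comparison by edgeR or DESeq2 and for Cdkn1a, Bbc3, Bax and Ccng1. Of the p53 regulators and other p53 targets, Trp53, Mdm2 and Mdm4 were named always and others when edgeR called them, and of the G2/M and stress response lists up to 4 called genes with the smallest p. Further members were chosen for mention from their values. Results were recomputed with size factors of DESeq2 (1.42.0), with its Wald test, without a filter or with at least 1 CPM required in 3 libraries, with robust empirical Bayes, without the fold limit, with the compared groups alone, and without each mouse in turn. Leaving out preleukemic_445 or preleukemic_479 in TgSpi1FA-/- progression was added after seeing the data.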

Additional observations from a re-analysis of the deposited data

Results flagged for a closer look

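For each member, the library farthest from the others in groups of 4 mice was tested against the group's range (Dixon's criterion at 95%). It flags about 1 in 20 groups by chance if values are normally distributed and libraries independent. Only the members were searched, so no share over all genes stands beside these counts. They are therefore not read as a trait of the members. In TgSpi1FA+/+ preleukaemic cells of model 1, 4 of 30 members were so marked, each through preleukemic_138, with 96.1 CPM of Ccng1 (153 to 165 in the other mice), 71.1 CPM of Aen (97.3 to 99.1), 104 CPM of Apaf1 (158 to 166) and 54.2 CPM of Gadd45a (29.1 to 33.3). The nearly alike libraries preleukemic_445 and preleukemic_479 are both among the other mice here. In preleukaemic cells of model 2, 7 of 32 members were marked. The library preleukemic_812 was high in Cdkn1a (72.2 CPM against 27.97 to 31.7), Pmaip1 (24.4 against 0), Aen (232 against 49.0 to 73.4) and, at a low level, Plk2 (0.293 against at most 0.04998). The others were preleukemic_633 in Gtse1 (47.7 CPM against 33.5 to 35.5) and Rrm2b (16.4 against 24.7 to 25.8) and preleukemic_663 in Perp (7.42 CPM against at most 0.706).

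In the second table, 8 of 33 members were marked in TgSpi1FA+/+ cells, 6 of them through preleukemic_445. These were Cdkn1a (142 CPM against 7.64 to 14.9), Ccng1 (399 against 69.5 to 107), Plk2 (11.8 against at most 0.242), Eda2r (11.7 against 0), Gdf15 (3.27 against at most 0.420) and Pmaip1 (1.31 against at most 0.0372). Ddb2 was low in preleukemic_451 (8.47 CPM) and Gadd45a high in preleukemic_138 (61.8 CPM). Eda2r and Plk2 in preleukemic_445 also lie outside the comparisons, as neither was tested in model 1.

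The leukaemic change of Ccng1 differed between the models by -2.13 on the log2 scale in the test of the difference itself (adjusted p = 0.0378 from edgeR). The call was lost without any of 9 of the 13 mice compared (adjusted p up to 0.0890) and with no filter on low counts (0.0509). FANCA status, route of progression, strain, library protocol and deposited table cannot be told apart in this difference.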

How the results depend on the processing

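In the comparison of TgSpi1FA-/- leukaemic with preleukaemic cells, 3 to 9 members were called with a mouse left out (4 without preleukemic_77 or preleukemic_40, 3 without preleukemic_224 or leukemic_28), with medians of 0.09 to 0.19. The called members kept their direction under the alternatives tried. Over all genes, 414 to 2319 were called with a mouse left out and 3099 by DESeq2's Wald test, against 1782. For FANCA loss, DESeq2 called 2 members where edgeR called 0, and over all genes 256 by DESeq2, 4 with no filter and up to 16 without preleukemic_451 were called against 1. In model 2, DESeq2 called 1 member and 470 genes and gave a median of 0.19, no filter gave a median of 0.17, and leaving out a mouse gave medians of 0.0062 to 0.33. For the difference between models, DESeq2 called 11 members, no filter 0 and the filter of 1 CPM 2, with a median of -0.038 under the last. Leaving out a mouse gave 0 to 5 members, medians of -0.048 to 0.45 and 1 to 1359 genes called against 673, where no filter gave 279 and DESeq2 2037. Cdkn1a changed sign with a mouse left out, ranging from -0.18 (without leukemic_26) to 2.26 in TgSpi1FA-/- progression, from -1.13 to 0.39 for FANCA loss (0.07 without preleukemic_445, 0.11 without preleukemic_77, 0.39 without preleukemic_224), from -0.24 (without leukemic_601) to 0.77 in model 2 and from -0.49 (without leukemic_26) to 1.94 for the difference. Apart from the samples removed or the genes tested, the cause was not tested. No paired analysis was possible because each mouse number occurs in 1 group only.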

Other observations

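Atf3, a stress-induced transcription factor that is also a p53 target, had 33.2, 19.01 and 12.6 CPM in the TgSpi1FA-/- libraries leukemic_26, leukemic_28 and leukemic_39 and at most 3.46 CPM in the 7 preleukaemic libraries of model 1. In the second table, Atf3 had 2.49, 7.72 and 11.6 CPM in the same leukaemic mice and 1.17 to 2.41 CPM in TgSpi1FA+/+. In model 2 it had 3.46 to 16.9 CPM in preleukaemic and 8.17 to 25.3 CPM in leukaemic libraries. Cdkn2a, which encodes the p53-stabilising protein ARF beside p16, had 298, 169 and 137 CPM in leukemic_26, leukemic_28 and leukemic_39 and between 108 and 289 CPM in the preleukaemic libraries, so that stages and genotypes overlapped. In the second table, Mdm4 had 666 CPM in preleukemic_445 and 572 CPM in the library leukemic_39, against 210.4 to 361 CPM in the other 5 libraries. These 3 genes were picked from their values.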
